A study of Sus scrofa with 9 samples.

Results

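Heat shock proteins of the HSP90, HSPH, HSPA, HSPD, HSPE and HSPB families, the J-domain proteins of the DNAJ families and the heat shock factors were followed in pig oocytes that had been heated early in maturation. Members were the rows of the count table whose symbol starts with HSPA, HSPB, HSPD, HSPE, HSPH, HSP90 or DNAJ, or with HSF followed by a digit. This gave 67 of 23507 genes, in 10 families. There were 26 DNAJC, 11 DNAJB, 4 DNAJA, 11 HSPA, 4 HSPB, 4 HSF and 2 HSP90 genes, with HSPH1, HSPD1 and HSPE1. HSPBP1 and HSPBAP1 are taken in by the prefix although they encode proteins that bind a heat shock protein and are not chaperones of the HSPB family. Members were looked up by symbol, and 9498 genes of the table carry none. HSP90AA1, HSPA1A, HSPA1B and HSPA2, among them classic heat-inducible genes, were not found by symbol and were not analysed here.

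Molecular chaperones bind unfolded proteins and keep them from aggregating. HSP70 proteins (HSPA) bind and release clients in a cycle of ATP hydrolysis, which J-domain proteins (DNAJ) start and nucleotide exchange factors such as HSPH1 and HSPA4 reset. HSP90 completes the folding of kinases and receptors, HSPD1 with its lid HSPE1 forms a folding chamber in mitochondria, and small heat shock proteins (HSPB) hold clients without ATP. In many cells heat frees the factor HSF1 to switch these genes on, and the heat-inducible HSPA1A, DNAJB1 and HSPH1 are textbook targets. A fully grown oocyte makes little new RNA, so its mRNA levels up to metaphase II (MII) are set largely by storage, tail length and decay of maternal transcripts.

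All oocytes were wild type, came from cumulus-enclosed complexes and were matured in vitro to MII, the arrested stage at which an egg can be fertilised. Control oocytes were kept at 38.5 °C. In the heat stress group, germinal vesicle oocytes spent 24 h at 41.5 °C and then matured at 38.5 °C, so RNA was sampled well after the heat had ended. The third group had L-Asp in the medium during the same heat. Its labels name final concentrations of 0.5, 1.0 and 1.5 mmol/L, and the sources used here do not give the one that was sequenced. Each group has 3 libraries. The labels speak of 25 oocytes a group and do not say whether the libraries came from separate oocytes, animals or cultures, and the p-values speak only for the spread among these libraries. Priming with oligo(dT) reads RNA through its poly(A) tail. Fewer transcripts and shorter tails therefore cannot be told apart, and neither can fewer cells of a type and less RNA per cell.

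Library totals ran from 41693395 to 58361475 counts. The members held 0.845% to 0.848% of the counts in control, 0.842% to 1.15% after heat stress and 0.877% to 0.984% with L-Asp. Counts encoded in the mitochondrial genome took 10.0% to 10.1% in control but 3.09%, 5.18% and 14.5% in heat stress replicates 1, 2 and 3, and 5.30% to 9.47% with L-Asp. Between control libraries the squared difference of gene counts was 5.20 to 5.24 times what independent counts would give, against 109 to 119 for pairs of heat stress libraries and 79.4 to 86.2 for pairs with L-Asp. The 3 control libraries may therefore be repeats of 1 library, and their mean entered every test as 1 sample, which leaves 7 libraries. Their values are shown one by one below as a description. CPM are counts relative to the library total, adjusted by the trimmed mean of M values (TMM), and serve to compare libraries for 1 gene. FPKM are the authors' values per transcript length and serve to compare genes.

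In control oocytes the members spanned from unmeasurable to among the most abundant transcripts. HSPE1, the lid of the mitochondrial chaperonin, had a mean of 789.6 FPKM, DNAJA1, a cytosolic J-domain partner of HSP70, had 769 FPKM, and DNAJC15, a J-domain protein of the inner mitochondrial membrane, had 682 FPKM. HSPE1 lay at the 99.67th percentile of the genes tested. The cytosolic HSP90AB1 followed with 272 FPKM and the HSP90 of the endoplasmic reticulum (ER), HSP90B1, with 119 FPKM. Those 5 members were above 100 FPKM, 21 lay between 10 and 100, 21 between 1 and 10 and 20 under 1. Both HSP90 genes were in the top class, whereas 7 of the 26 DNAJC genes and 3 of the 4 HSF genes were under 1 FPKM in control. HSPA8, the constitutive cytosolic HSP70, had 20.0 FPKM in control, and HSPA5, the ER HSP70 also known as BiP, had 10.8 FPKM. The plot of FPKM by family shows these levels for each group.

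**Figure D1:**
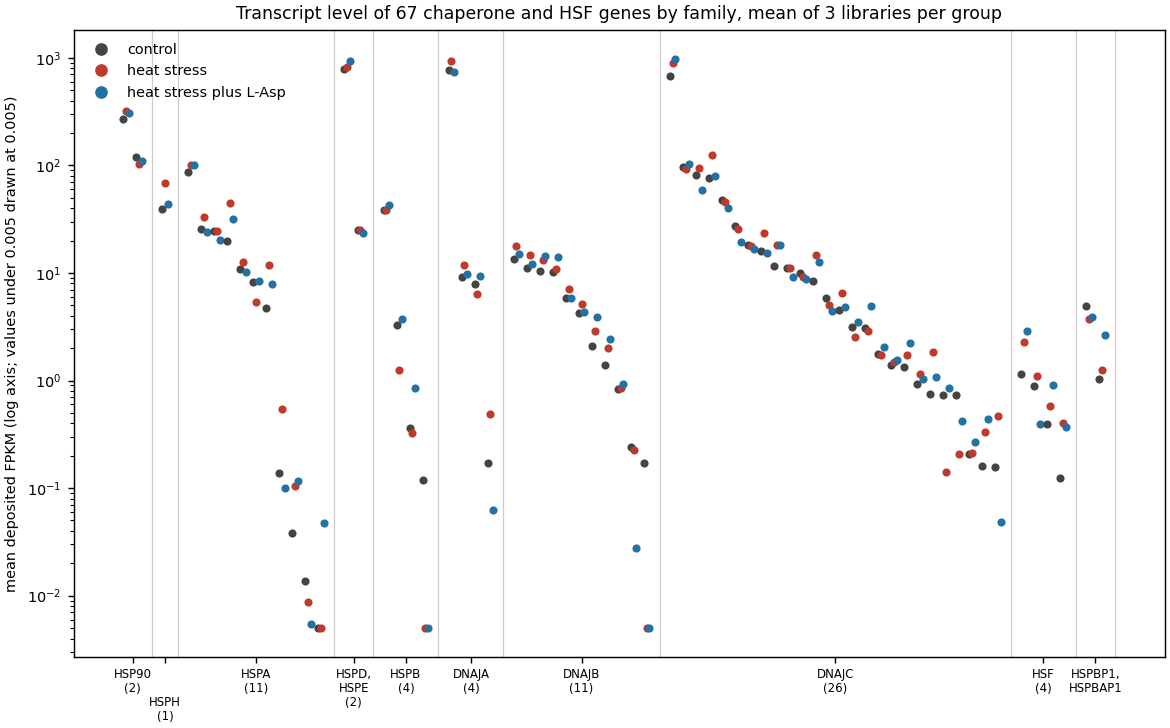
Mean deposited FPKM (log axis) of the 67 members in the control group and both heated groups, grouped by family along the x axis with the number of genes in parentheses and ordered within each family by the control level. HSPE1, DNAJA1 and DNAJC15 stand at the top, from 682 FPKM upward in control, while several HSPA, HSPB and DNAJB members lie under 1 FPKM.

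Heat stress against control asks which chaperone transcripts still differed in mature eggs after early heat. The 2 members with the smallest p-values were HSPA8 and HSPA4, both with more counts after heat, at 337 ± 70.1 against 168 CPM and 64.2 ± 28.8 against 28.3 CPM (SD, n = 3 after heat). None of the 64 members tested passed an adjusted p of 0.05 (edgeR quasi-likelihood test, Benjamini-Hochberg), and neither did any of the 15012 genes tested (0.0%). The smallest adjusted p of a member was 0.841. DESeq2 on the same libraries called 0 of the 63 members to which it gave an adjusted p, and 172 genes in all. At an unadjusted p under 0.05 edgeR gave 2 members, both higher, where 3.86% of all genes tested passed in either direction, 1.96% as higher and 1.9% as lower. The count of 2 was 1 without heat stress replicate 1, 7 without heat stress replicate 3 and 1 without L-Asp replicate 3. The share of all genes was not computed with a library left out.

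Counting libraries gives the same picture for heat stress. All 3 heat stress libraries lay above every control library for 7 members (HSPA8, HSPA4, HSPA13, HSPH1, DNAJA4, DNAJC12 and DNAJC19), and 13.6% of all genes did so. They lay below every control library for 10 members (HSP90B1, HSPA12A, HSPB3, HSPB8, HSPE1, DNAJA3, DNAJC4, DNAJC6, DNAJC13 and DNAJC25), and 19.0% of all genes did so. HSPB3 passed the filter only through its control counts, so its place in that list was fixed in advance. HSPE1 was counted by a narrow margin, with 1149.08 CPM in heat stress replicate 3 against 1149.44 CPM in control replicate 3. Since the control libraries may be repeats, these counts stand in for a comparison of 3 values with 1. With 2 heat stress libraries in place of 3, the count above was 12 without replicate 1, 12 without replicate 2 and 20 without replicate 3, and the count below was 19 without replicate 1. Lack of overlap is easier to reach with 2 libraries for any gene, and no share of all genes was computed for these counts. The median log2 fold change of the members was 0.09, with 36 of 64 above 0, against 0.00 for all genes, of which 50.1% were above 0. Scaling by library total alone moved the median of all genes to 0.19 and put 47 members above 0, and relative to all genes the members' median was then 0.09.

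Comparing the heated groups with and without L-Asp asks whether it altered chaperone RNA under the same heat. Among members of at least 10 CPM, HSPH1 and DNAJC12 had the lowest p-values for fewer counts with L-Asp, and DNAJA3 and HSPA12A those for more. None of the 64 members passed an adjusted p of 0.05 in the edgeR test, in which 0.0% of all genes passed, and the smallest adjusted p of a member was 0.738. DESeq2 called 0 members and 183 genes. Unadjusted p-values under 0.05 were given by edgeR to 6 members, 4 higher (DNAJC25, HSPB8, DNAJA3 and HSPA12A) and 2 lower (HSPH1 and DNAJC12), beside 6.61% of all genes, 3.52% higher and 3.1% lower. That count of 6 was 2 without heat stress replicate 1, 1 without heat stress replicate 2, 10 without L-Asp replicate 1, 2 without L-Asp replicate 2 and 1 without L-Asp replicate 3. The share of all genes in those fits was not computed.

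The CPM of the groups with and without L-Asp did not overlap for 4 members that were higher with it (HSPE1, DNAJA3, DNAJC14 and DNAJC25), beside 6.31% of all genes. For 4 others they were lower without overlap (HSPA13, HSPA14, DNAJA4 and DNAJC12), beside 5.54% of all genes. The count of higher members was 7 without heat stress replicate 2 and 7 without L-Asp replicate 3, and that of lower members was 9 without heat stress replicate 2, 10 without heat stress replicate 3 and 16 without L-Asp replicate 1. With a library left out, lack of overlap is easier to reach for any gene, and no share of all genes was computed. The members' median log2 fold change was 0.01 and that of all genes -0.01, with 32 members above 0 and 31 below, where 49.0% of all genes were above 0.

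Heat stress plus L-Asp was also set against control, sharing its libraries with the comparisons above. No member passed an adjusted p of 0.05 in edgeR, as 0.0% of all genes did, and every member's adjusted p was 1.0. DESeq2 called 0 members and 64 genes. At an unadjusted p under 0.05 there were 0 members, beside 3.22% of all genes (1.63% higher and 1.6% lower), and 3 members without L-Asp replicate 1. Of the 64 members, 11 had all L-Asp libraries above every control library and 14 had all below, beside 14.2% and 19.6% of all genes. The members below include HSPB3, which passed the filter only through its control counts. The count below was 23 without L-Asp replicate 1 and 5 with scaling by library total. No such share of all genes was computed with a library left out or with that scaling. The median was 0.02 for members and 0.01 for all genes, and 34 members lay above 0, beside 50.5% of all genes, or 42 with scaling by library total.

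**Figure D2:**
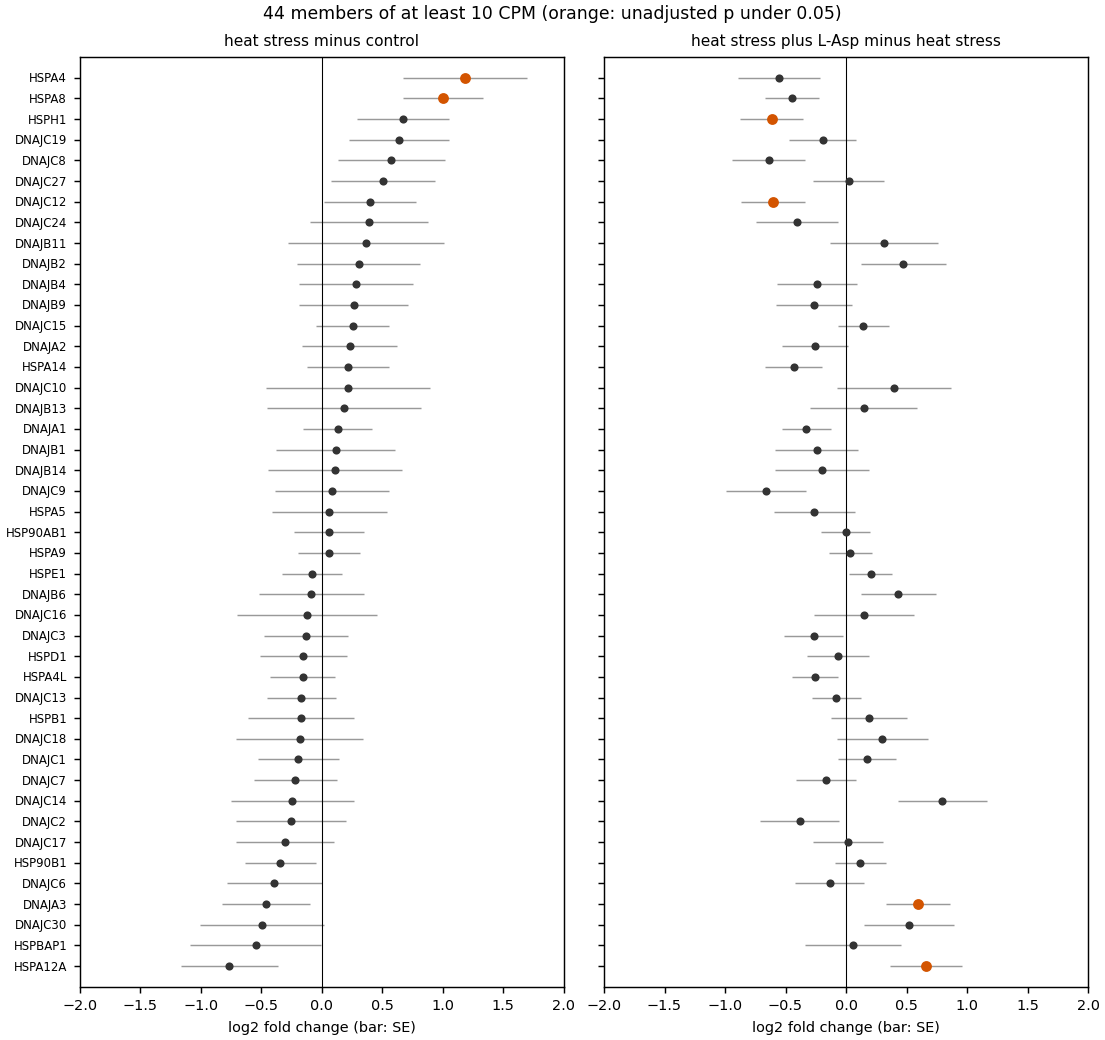
Log2 fold change (point) with its standard error (bar) in the edgeR fit for the 44 members of at least 10 CPM, ordered by heat stress minus control (left panel), with the L-Asp group minus the heat stress group in the right panel. HSPA4 and HSPA8 are the orange points at an unadjusted p under 0.05 on the left, HSPH1, DNAJC12, DNAJA3 and HSPA12A those on the right, and none passed an adjusted p of 0.05.

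The heat shock factors, which drive heat-induced transcription in somatic cells, were few in RNA. HSF1, the main heat sensor, measured 2.71, 3.57 and 3.41 CPM in control, 2.25, 7.34 and 7.61 CPM in heat stress and 6.83, 5.56 and 9.99 CPM with L-Asp. Its L-Asp libraries lay above control, whereas heat stress replicate 1 lay below it. HSF2, a factor active in development and in germ cells, measured 3.28, 2.71 and 2.75 CPM in control, 5.39, 1.95 and 2.68 CPM in heat stress and 2.90, 0.344 and 0.332 CPM with L-Asp, so that L-Asp replicate 1 overlapped the other groups and the other two lay far below. HSF5, a factor of male germ cells, stayed between 1.09 and 1.88 CPM in control and 1.09 and 3.49 CPM in heat stress, and reached 6.99 CPM in L-Asp replicate 2. HSF4, known from the lens, was at 0.466 to 0.515 CPM in control and reached 3.02 CPM in heat stress replicate 2 and 2.65 CPM in L-Asp replicate 3.

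Summed, the HSF genes held 8.20 CPM in control, 12.4 ± 3.38 CPM in heat stress and, with L-Asp, 13.3 ± 1.63 CPM (SD, n = 3). All 4 had a log2 fold change above 0 for heat stress against control under TMM, under DESeq2's size factors and under library totals, but none had a p under 0.05. Under TMM 50.1% of all genes were above 0. For HSF1 the change was 0.82 ± 0.84 (SE) for heat stress and 1.20 ± 0.86 for heat stress plus L-Asp, both against control. The values of the other factors moved when single libraries were left out. For L-Asp against heat stress HSF2 changed from -1.48 to -3.30 without L-Asp replicate 1, HSF5 from 0.71 to -0.49 without L-Asp replicate 2, and HSF4 from 0.02 to 1.45 without heat stress replicate 2. HSF1 overlaps DGAT1 and BOP1 on the opposite strand, and no strand is described for the reads, so shared reads may not have been told apart.

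HSPA8 and its exchange factors HSPA4 and HSPH1 had the 3 smallest p-values for heat stress against control among members of at least 10 CPM with more counts after heat. HSPA8 encodes HSC70, the HSP70 that cells make without stress. It measured 168, 171 and 166 CPM in control, 417, 290.3 and 302 CPM in heat stress and 297, 212 and 232 CPM with L-Asp. Every heated library lay above every control library, and heat stress replicate 1 was the highest. The 2 heated groups overlapped, since L-Asp replicate 1 lay above heat stress replicate 2. The log2 fold change was 1.00 ± 0.33 (SE) for heat stress against control (unadjusted p = 0.0115, adjusted p = 0.841, edgeR), -0.45 ± 0.22 for L-Asp against heat stress (unadjusted p = 0.068) and 0.55 ± 0.32 for heat stress plus L-Asp against control. With the 3 control libraries taken as separate samples the adjusted p of the first difference was 0.0137 (edgeR), in a fit that called 433 genes in all. HSPA8 (chromosome 9, 49982284 to 49990508, in the table's coordinates, for which the sources used here give no build) overlaps CLMP on the same strand.

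HSPA4 encodes APG-2, which releases ADP from HSP70. It measured 29.6, 28.7 and 26.5 CPM in control, 97.2, 51.0 and 44.2 CPM in heat stress and 57.6, 32.2 and 41.6 CPM with L-Asp. All heated libraries lay above all control libraries, and replicate 1 was the highest in both heated groups. The log2 fold change was 1.18 ± 0.51 for heat stress against control (unadjusted p = 0.0418, adjusted p = 1.0, edgeR), and 0.75 with an unadjusted p of 0.11 without heat stress replicate 1. For L-Asp against heat stress it was -0.55 ± 0.34, or -0.12 without heat stress replicate 1. HSPA4 lies on chromosome 2 at 135345867 to 135391108 and overlaps no other gene of the table.

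HSPH1, or HSP105, is the heat-inducible exchange factor of the same kind. It measured 179.8, 180.2 and 184 CPM in control, 379, 273 and 212 CPM in heat stress and 237, 178 and 149 CPM with L-Asp. Heat stress libraries lay above control without overlap, while the L-Asp libraries lay on both sides of control. Its log2 fold change was 0.67 ± 0.38 for heat stress against control (unadjusted p = 0.106), -0.62 ± 0.26 for L-Asp against heat stress (unadjusted p = 0.0363, adjusted p = 0.738, edgeR) and 0.05 ± 0.37 for heat stress plus L-Asp against control. Without heat stress replicate 1 the second value was -0.37 with an unadjusted p of 0.172. HSPA4L, a relative of both, lay in the other direction, at 292, 303 and 309 CPM in control, 294, 246 and 271 CPM in heat stress and 254, 225 and 198 CPM with L-Asp. Its L-Asp libraries were all below control, with a log2 fold change of -0.42 ± 0.26 (unadjusted p = 0.143).

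**Figure D3:**
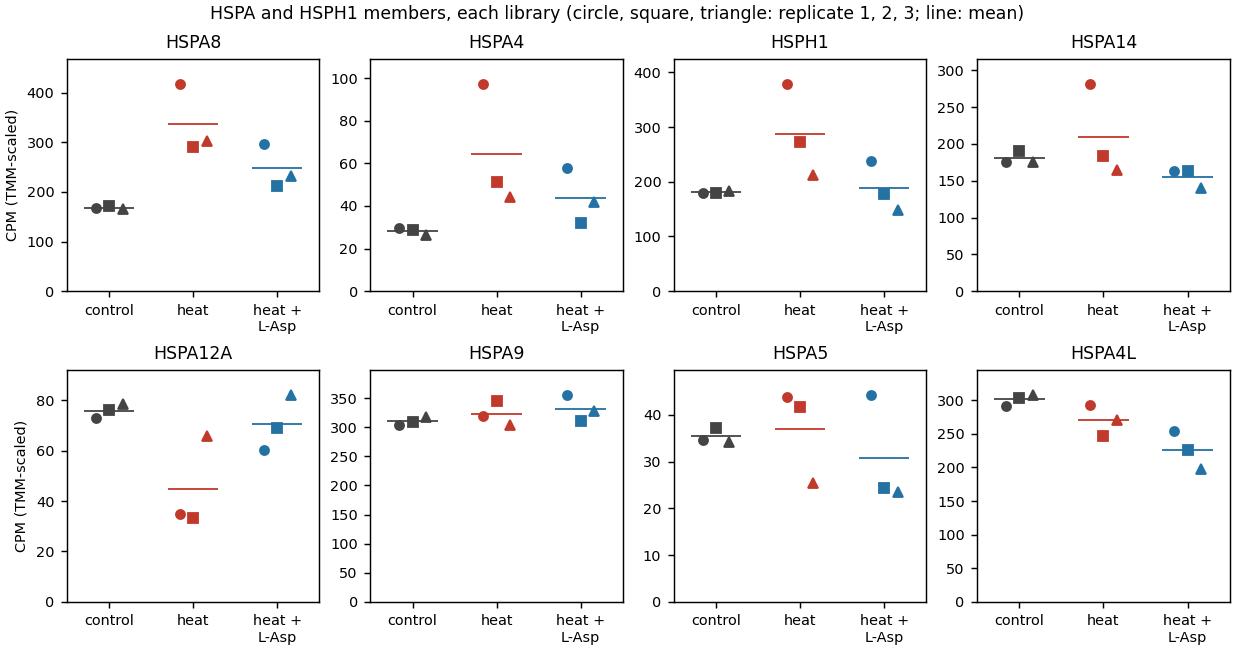
CPM of 8 HSPA and HSPH1 genes in each library (circle, square and triangle for replicates 1, 2 and 3, with the group mean as a line, y axes from 0). HSPA8 and HSPA4 lie above control in all 6 heated libraries, heat stress replicate 1 is the highest library for HSPA8, HSPA4, HSPH1 and HSPA14, and HSPA12A is low in heat stress replicates 1 and 2.

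The other HSP70 genes showed no common direction. HSPA9, or mortalin, the HSP70 that pulls proteins into mitochondria, was the most even, with 304 to 317 CPM in control, 305 to 345 CPM in heat stress and 311 to 356 CPM with L-Asp, and a log2 fold change of 0.06 ± 0.26 for heat stress against control. HSPA5, the ER chaperone that marks the unfolded protein response, measured 34.7, 37.2 and 34.2 CPM in control, 43.8, 41.7 and 25.4 CPM in heat stress and 44.3, 24.4 and 23.6 CPM with L-Asp. Its groups overlapped throughout, and its log2 fold change for heat stress was 0.06 ± 0.47. HSPA14, which works at the ribosome with DNAJC2, measured 175, 190.4 and 176 CPM in control, 281, 184 and 165 CPM in heat stress and 164, 163 and 140.2 CPM with L-Asp. All L-Asp libraries were below all heat stress libraries, by a small margin for replicate 3 of heat stress, and the log2 fold change was -0.43 ± 0.23 (unadjusted p = 0.0926).

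HSPA12A, an atypical member of the HSP70 family, went opposite to HSPA8. It measured 72.9, 76.0 and 78.7 CPM in control, 35.0, 33.3 and 65.9 CPM in heat stress and 60.3, 69.2 and 82.3 CPM with L-Asp. All heat stress libraries were below control, and heat stress replicate 3 overlapped the L-Asp group. Its log2 fold change was -0.76 ± 0.40 for heat stress against control (unadjusted p = 0.0838) and 0.66 ± 0.30 for L-Asp against heat stress (unadjusted p = 0.0484, adjusted p = 0.738, edgeR). HSPA12A overlaps ENO4 on the opposite strand. HSPA13, an HSP70 of the ER with little RNA, measured 2.19 to 3.91 CPM in heat stress, 0.526 to 1.30 CPM in control, and 1.66, 0 and 0 CPM with L-Asp. HSPA6, a strictly heat-inducible gene in human cells, held at most 7 counts in any library, and the testis gene HSPA1L was at 0 counts in 8 of the 9 libraries and at 22 in the other one. A count of 0 allows up to 0.229 to 0.284 CPM, taking 3 fragments and the 4 counts per fragment at which low control counts pile up, for counting error only. Over the 9 HSPA genes tested, 7 had a log2 fold change above 0 for heat stress against control and 3 for L-Asp against heat stress, with medians of 0.22 and -0.26. The shares of all genes above 0 were 50.1% and 49.0%. With library totals 8 HSPA genes were above 0 for heat stress against control, where the median of all genes was 0.19.

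The 2 HSP90 genes were abundant and differed little. HSP90AB1, the constitutive cytosolic form, measured 1012, 1003 and 1031 CPM in control, 1148, 1152 and 878 CPM in heat stress and 1052, 888 and 1232 CPM with L-Asp, with overlap between all groups. The log2 fold change was 0.06 ± 0.29 for heat stress against control and 0.00 for L-Asp against heat stress. HSP90B1, or GRP94, the ER form, measured 541, 536 and 539.6 CPM in control, 463, 388 and 422 CPM in heat stress and 577, 369.7 and 435 CPM with L-Asp. Its heat stress libraries lay below control and overlapped the L-Asp libraries, with a log2 fold change of -0.34 ± 0.29 for heat stress (unadjusted p = 0.264). By FPKM, HSP90B1 was 10.9 times HSPA5 in control, 8.72 ± 2.79 times after heat stress and 11.1 ± 1.97 times with L-Asp. The 10 members assigned to the ER for this count (HSPA5, HSPA13, HSP90B1, DNAJB9, DNAJB11, DNAJB12, DNAJB14, DNAJC1, DNAJC3 and DNAJC10, but not DNAJC14) had a median log2 fold change of 0.09 for heat stress against control and -0.04 for L-Asp against heat stress.

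DNAJA1 led the J-domain proteins of type A, which resemble bacterial DnaJ. It measured 2245, 2266 and 2284 CPM in control, 2890.4, 2357 and 2189 CPM in heat stress and 2217, 2061 and 1646 CPM with L-Asp. Heat stress replicate 3 was below control and the other two above, and all L-Asp libraries were below control. Its log2 fold changes were 0.13 ± 0.29 for heat stress against control and -0.33 ± 0.20 for L-Asp against heat stress (unadjusted p = 0.13). DNAJA1 made up 97.8% of the summed FPKM of the 4 DNAJA genes in control and 98.0% ± 0.175 after heat stress, and APTX overlaps it on the opposite strand. The FPKM of DNAJA1 stood at 38.0 to 39.4 times that of HSPA8, its HSP70 partner, in control, 19.8 to 23.2 times after heat stress and 20.3 to 27.8 times with L-Asp. No heated library reached the control ratio, which was computed after HSPA8 had been seen and has no test.

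DNAJA3, or TID1, the type A protein of mitochondria, measured 31.4, 30.0 and 30.1 CPM in control, 22.4, 20.5 and 23.5 CPM in heat stress and 28.7, 37.6 and 34.3 CPM with L-Asp. The heat stress libraries lay below all others and close to each other. Its log2 fold change was -0.46 ± 0.36 for heat stress against control (unadjusted p = 0.23) and 0.60 ± 0.26 for L-Asp against heat stress (unadjusted p = 0.0442, adjusted p = 0.738, edgeR). DNAJA2, a cytosolic partner of HSPA8, overlapped between all groups, at 59.4 to 64.7 CPM in control, 50.3 to 88.1 CPM in heat stress and 50.7 to 75.9 CPM with L-Asp. DNAJA4 had little RNA, with 1.14 to 1.71 CPM in control, 2.14 to 4.87 CPM in heat stress and 0 to 0.892 CPM with L-Asp.

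DNAJB1, the main heat-inducible J-domain protein of somatic cells, measured 34.4, 37.7 and 40.1 CPM in control, 47.7, 50.7 and 23.4 CPM in heat stress and 46.3, 25.8 and 30.7 CPM with L-Asp. The groups overlapped, and heat stress replicate 3 had the lowest value of all. Its log2 fold change was 0.11 ± 0.49 for heat stress against control. DNAJB4, a close relative, was the most abundant DNAJB gene in control at 13.5 FPKM and measured 51.1 to 53.4 CPM in control, 32.2 to 87.8 CPM in heat stress and 48.0 to 57.4 CPM with L-Asp. DNAJB9, an ER protein that recruits BiP to the stress sensor IRE1, lay at 30.6 to 35.3 CPM in control, 32.6 to 48.7 CPM in heat stress and 22.5 to 45.2 CPM with L-Asp. DNAJB13, a gene of the sperm tail, was at 15.0 to 16.7 CPM in control, 6.56, 21.7 and 24.7 CPM in heat stress and 18.2 to 21.6 CPM with L-Asp. It had the widest spread in heat stress of the members of at least 10 CPM, with a coefficient of variation of 55.1%.

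DNAJB6 and DNAJB2, which hold back protein aggregates, were both highest in L-Asp replicate 3. DNAJB6 measured 114, 108 and 105 CPM in control, 71.4, 129.5 and 107 CPM in heat stress and 111, 99.7 and 204 CPM with L-Asp. DNAJB2 measured 12.1, 12.9 and 12.1 CPM in control, 11.8, 17.8 and 16.1 CPM in heat stress and 17.7, 16.2 and 29.4 CPM with L-Asp, with every L-Asp library above control and a log2 fold change of 0.77 ± 0.52 against it (unadjusted p = 0.164). Of the 10 DNAJB genes tested, 7 were above 0 for heat stress against control, or 9 with scaling by library total, and 0 had a p under 0.05. Under TMM the share of all genes above 0 was 50.1%. DNAJB8, a gene of the testis that was not tested, had 16, 4 and 4 counts in control and 0 in every heated library.

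The DNAJC proteins share only the J domain and act in many places. DNAJC15, which restrains respiration and serves protein import at the mitochondrial inner membrane, measured 416, 419 and 411 CPM in control, 496, 418 and 573 CPM in heat stress and 525, 659.6 and 457 CPM with L-Asp. The L-Asp libraries lay above control and overlapped heat stress, with a log2 fold change of 0.40 ± 0.31 against control (unadjusted p = 0.22). DNAJC19, a partner of HSPA9 in the import motor, measured 60.7, 61.4 and 58.0 CPM in control, 124, 86.2 and 69.6 CPM in heat stress and 62.1, 105 and 77.4 CPM with L-Asp. All 6 heated libraries lay above control, by under 1 CPM in L-Asp replicate 1, and the log2 fold change for heat stress was 0.64 ± 0.41 (unadjusted p = 0.15). DNAJC30, a mitochondrial protein that helps repair complex I, measured 16.2, 19.7 and 13.3 CPM in control, 8.89, 15.9 and 10.1 CPM in heat stress and 12.8, 15.8 and 21.5 CPM with L-Asp, with overlap between all groups. The 8 mitochondrial members, HSPA9, HSPD1, HSPE1, DNAJA3, DNAJC11, DNAJC15, DNAJC19 and DNAJC30, had medians of -0.01 for heat stress against control and 0.09 for L-Asp against heat stress.

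DNAJC8, DNAJC9 and DNAJC2 each had their highest value in heat stress replicate 1. DNAJC8, a splicing-associated protein, measured 235, 232 and 230.4 CPM in control, 521, 317 and 199.8 CPM in heat stress and 259, 204 and 203 CPM with L-Asp. Heat stress replicate 3 lay below every other library. Its log2 fold change for L-Asp against heat stress was -0.64 ± 0.30 (unadjusted p = 0.0589), or -0.22 without heat stress replicate 1. DNAJC9, a histone chaperone that hands H3 and H4 to chromatin, measured 549.9, 540.4 and 527 CPM in control, 922, 441 and 347 CPM in heat stress and 455, 310.4 and 315 CPM with L-Asp. Its L-Asp libraries were all below control, with a log2 fold change of -0.58 ± 0.45 against control and -0.66 ± 0.33 against heat stress (unadjusted p = 0.0718). For heat stress against control it was 0.08 ± 0.47, or -0.45 without heat stress replicate 1. DNAJC2, a ribosome-bound J-domain protein, measured 183, 167 and 171 CPM in control, 203, 132 and 102 CPM in heat stress and 163, 97.9 and 73.2 CPM with L-Asp. The lowest control library lay above all L-Asp libraries. DNAJC9 overlaps FAM149B1 and DNAJC2 overlaps PSMC2.

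DNAJC12, which assists the hydroxylases of aromatic amino acids, separated the heated groups. It measured 31.2, 27.9 and 31.9 CPM in control, 33.0, 37.7 and 49.2 CPM in heat stress and 24.7, 28.1 and 26.1 CPM with L-Asp. Heat stress lay above both other groups without overlap, with a log2 fold change of -0.60 ± 0.27 for L-Asp against heat stress (unadjusted p = 0.0445, adjusted p = 0.738, edgeR) and 0.40 ± 0.38 for heat stress against control. DNAJC14, an ER membrane protein that guides receptors to the surface, measured 12.6, 12.0 and 12.2 CPM in control, 13.8, 10.2 and 7.08 CPM in heat stress and 15.9, 21.7 and 16.3 CPM with L-Asp. L-Asp lay above both other groups, with 0.80 ± 0.37 against heat stress (unadjusted p = 0.0527). DNAJC14 overlaps ORMDL2. DNAJC25, with less RNA, measured 5.00, 3.97 and 3.39 CPM in control, 0.689, 0.0974 and 1.50 CPM in heat stress and 2.96, 7.07 and 3.20 CPM with L-Asp. Heat stress lay below both other groups, with 2.53 ± 0.97 for L-Asp against heat stress (unadjusted p = 0.0236, adjusted p = 0.738, edgeR) and -2.42 ± 1.18 for heat stress against control (unadjusted p = 0.064).

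**Figure D4:**
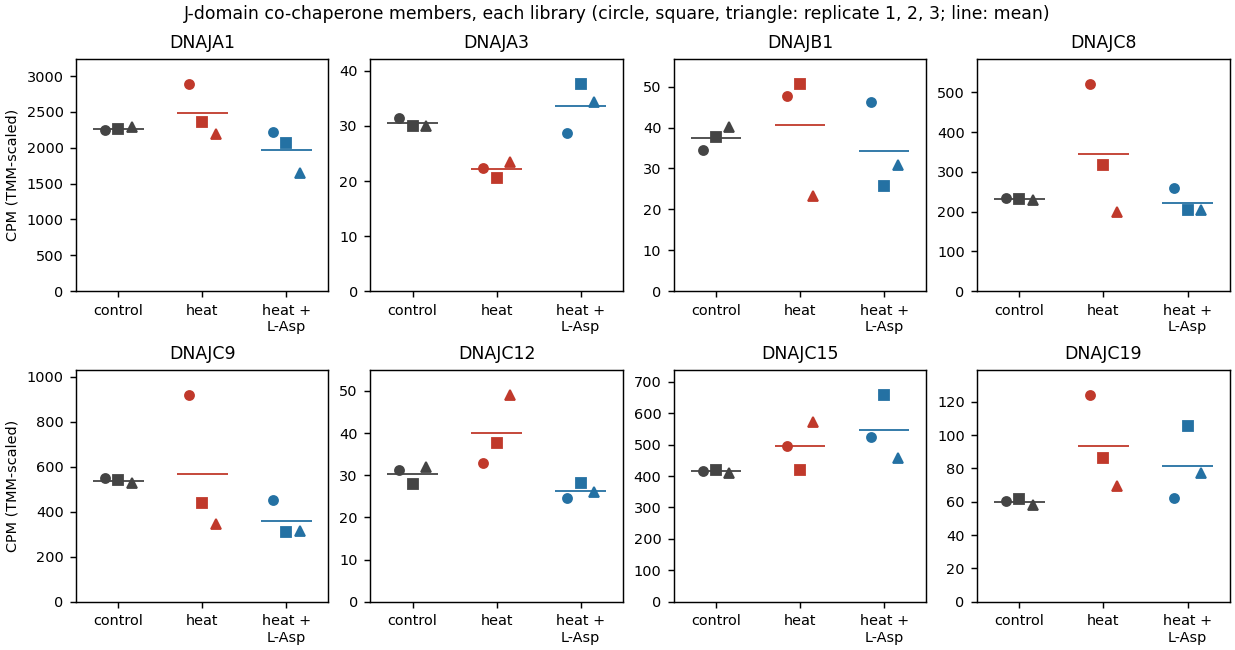
CPM of 8 DNAJ genes in each library (circle, square and triangle for replicates 1, 2 and 3, with the group mean as a line, y axes from 0). DNAJA3 is low and DNAJC12 high in all heat stress libraries relative to the L-Asp libraries, and heat stress replicate 1 stands highest of its group for DNAJA1, DNAJC8, DNAJC9 and DNAJC19.

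Several DNAJC genes sat on 1 side of control in the L-Asp group. DNAJC27, a Rab-like GTPase with a J domain, measured 66.3, 68.6 and 68.0 CPM in control, 145, 76.0 and 67.2 CPM in heat stress and 90.7, 90.9 and 111 CPM with L-Asp. All L-Asp libraries were above control (log2 fold change 0.53 ± 0.43). DNAJC3, an ER inhibitor of the kinase PERK, measured 90.3, 89.6 and 86.6 CPM in control, 105, 68.9 and 69.5 CPM in heat stress and 78.4, 61.4 and 62.2 CPM with L-Asp. DNAJC6, or auxilin, which uncoats clathrin vesicles, measured 50.9, 52.2 and 44.6 CPM in control, 41.8, 38.5 and 32.1 CPM in heat stress and 23.8, 36.0 and 42.6 CPM with L-Asp. Both were below control in all L-Asp libraries, and DNAJC6 in all heat stress libraries too. DNAJC1, an ER membrane protein and the third J-domain gene by FPKM in control, measured 263, 262 and 245 CPM in control, 281, 233 and 157 CPM in heat stress and 243, 221 and 292 CPM with L-Asp. Of the 26 DNAJC genes, 12 were above 0 for heat stress against control, or 17 with scaling by library total, and 13 for each comparison with L-Asp, with medians between -0.10 and 0.00. Under TMM 50.1% of all genes were above 0 for heat stress, and 49.0% and 50.5% with L-Asp against heat stress and against control.

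HSPD1 and HSPE1 encode the mitochondrial chaperonin HSP60 and its lid HSP10. In the table's coordinates they are head-to-head neighbours on chromosome 15, HSPD1 at 101360094 to 101373526 on the minus strand and HSPE1 at 101373976 to 101376144 on the plus strand, 449 bases apart. HSPE1 measured 1162, 1165 and 1149 CPM in control, 1094, 1043 and 1149 CPM in heat stress and 1154, 1384 and 1246 CPM with L-Asp. All L-Asp libraries lay above all heat stress libraries, the closest pair by a margin of few CPM, with a log2 fold change of 0.20 ± 0.18 (unadjusted p = 0.278, edgeR). The direction of HSPE1 for heat stress against control depended on the scaling. By CPM the heat stress libraries lay below control, and by FPKM above it, at 802, 860 and 825 against 785 to 793 FPKM. With library totals HSPD1 and HSPE1 both had a log2 fold change above 0 for heat stress against control. HSPD1 measured 81.7, 83.7 and 81.4 CPM in control, 102, 63.9 and 56.2 CPM in heat stress and 69.4, 69.9 and 72.7 CPM with L-Asp. Only heat stress replicate 1 was above control, and the L-Asp libraries had the lowest coefficient of variation of any member of at least 10 CPM in that group, 2.49%. Although divergent neighbours, they differed widely in level: by FPKM HSPE1 stood at 31.7 times HSPD1 in control, 35.6 ± 11.0 times after heat stress and 40.2 ± 3.84 times with L-Asp. The heat stress ratios of 24.2, 36.7 and 46.1 spread around control, and the L-Asp ratios of 37.4, 44.6 and 38.6 all lay above it.

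The small heat shock proteins were led by HSPB1, or HSP27, which guards actin and clients under stress. It measured 42.6, 45.1 and 40.4 CPM in control, 28.1, 40.1 and 45.3 CPM in heat stress and 31.7, 36.5 and 61.2 CPM with L-Asp, with overlap between all groups and a log2 fold change of -0.17 ± 0.44 for heat stress. HSPB8, which works with BAG3 in selective autophagy, measured 6.97, 9.52 and 8.03 CPM in control, 2.47, 1.07 and 5.17 CPM in heat stress and 9.10, 3.60 and 13.1 CPM with L-Asp. Heat stress lay below control and overlapped L-Asp, with -1.49 ± 0.87 for heat stress against control (unadjusted p = 0.113) and 1.56 ± 0.67 for L-Asp against heat stress (unadjusted p = 0.0403, adjusted p = 0.738, edgeR), or 2.30 without heat stress replicate 3. HSPB6 stayed at or under 2.78 CPM. HSPB3, a muscle form, had 22, 14 and 21 counts in control and 0 in all 6 heated libraries. Its control value of 0.267 CPM lay within the limit of 0.229 to 0.284 CPM given above for a count of 0, and 0.404 and 0.445 CPM lay above it. None of the 4 HSPB genes was above 0 for heat stress against control, where 50.1% of all genes were. HSPB3 passed the filter only through its control counts, so its direction was fixed in advance and adds nothing to that count. With scaling by library total 1 of 4 was above 0.

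The binding partners varied between libraries. HSPBAP1, which binds HSPB1, measured 34.7, 39.1 and 35.5 CPM in control, 19.9, 16.3 and 38.6 CPM in heat stress and 19.3, 20.2 and 38.4 CPM with L-Asp. Replicates 1 and 2 of both heated groups lay below control and replicate 3 within it, and PARP14 overlaps the gene. HSPBP1, an exchange factor of HSP70, measured 3.73, 3.38 and 3.08 CPM in control, 3.12, 0.682 and 7.84 CPM in heat stress and 2.66, 8.53 and 12.9 CPM with L-Asp. Its log2 fold change for L-Asp against heat stress was 1.05 ± 0.82, or 2.1 without heat stress replicate 3.

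Within the heated groups many members shared an order of libraries. Among the 44 members of at least 10 CPM, heat stress replicate 1 was the highest of its group for 25 (56.8%), beside 39.7% of the 6381 genes of that level, and heat stress replicate 3 was the lowest for 25, beside 35.1%. L-Asp replicate 1 was the highest for 21 (47.7%), beside 37.0%. The median coefficient of variation of those members was 3.69% in control, 28.95% after heat stress and 20.53% with L-Asp, where all genes of that level had 3.62%, 23.92% and 19.64%. The share of mitochondrially encoded counts was lowest in heat stress replicate 1 and highest in replicate 3, and its part in the order was not tested. Leaving those genes out of the library totals left the HSPA8 change at 0.98, as one of the alternatives below. That value compares groups and does not bear on the order of libraries within a group. Summed CPM over all members was 9413 in control, 9924 ± 1483 after heat stress and 9021 ± 544 with L-Asp, so that the heated groups lay on both sides of control.

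**Figure D5:**
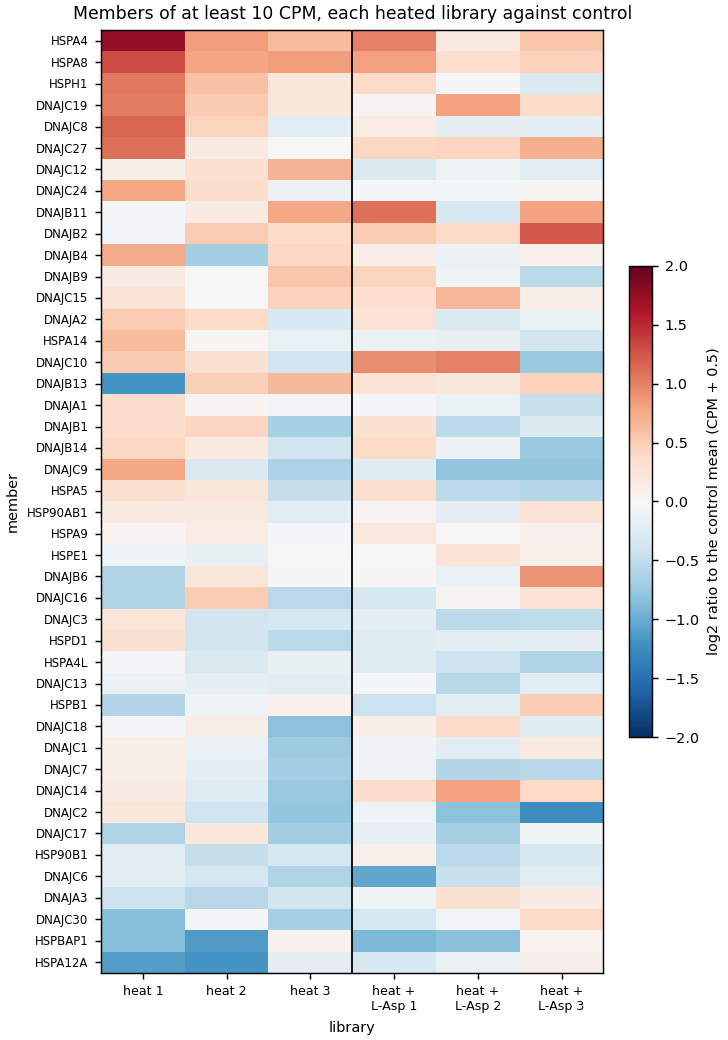
Log2 ratio of each heated library to the control mean (colour, with 0.5 added to each CPM) for the 44 members of at least 10 CPM, ordered as in the plot of fold changes, with heat stress libraries to the left and L-Asp libraries to the right of the line. HSPA4 and HSPA8 are red in all 6 columns, and the 6 top rows are deepest red in heat stress replicate 1.

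A list of 40 co-chaperones, other chaperones and ubiquitin genes outside the prefixes was read beside the members. Of its 37 tested genes none passed an adjusted p of 0.05 in edgeR in any of the 3 comparisons. At an unadjusted p under 0.05 (edgeR), 1 was higher (NUDC) and 3 were lower (UBB and HYOU1 among them) for heat stress against control. Of all genes tested, 1.96% were higher and 1.9% lower. For L-Asp against heat stress 2 were higher (AHSA1 and HYOU1) and 3 lower (FKBP5, STIP1 and SUGT1), beside 3.52% and 3.1% of all genes. For heat stress plus L-Asp against control 1 was higher (NUDC) and 2 lower (UBB among them), beside 1.63% and 1.6%. The list was chosen with earlier results of these data known, and no test was run on it as a set. UBB, a polyubiquitin gene, measured 16411, 16272 and 16315 CPM in control, 4265, 5233 and 5211 CPM in heat stress and 6547, 5151 and 5472 CPM with L-Asp, with -1.74 ± 0.25 for heat stress (adjusted p = 0.249, edgeR). Every heated library was far below control. Ubiquitin genes hold near-identical repeats, so reads may be split among them.

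HYOU1, the ER relative of HSPH1 that recharges BiP, measured 121, 118 and 115 CPM in control, 37.3, 53.1 and 87.1 CPM in heat stress and 106, 98.8 and 161 CPM with L-Asp. Heat stress lay below both other groups, with -0.99 ± 0.43 against control (unadjusted p = 0.0398) and 1.04 ± 0.32 for L-Asp against heat stress (unadjusted p = 0.00772, adjusted p = 0.738, edgeR). STIP1, or HOP, which passes clients from HSP70 to HSP90, measured 23.9, 23.6 and 26.8 CPM in control, 32.2, 26.5 and 15.4 CPM in heat stress and 12.7, 17.8 and 12.2 CPM with L-Asp. AHSA1, which speeds up the ATPase of HSP90, measured 638, 629.6 and 639 CPM in control, 477, 550.0 and 659 CPM in heat stress and 695, 716 and 929 CPM with L-Asp, above heat stress in every library. The median log2 fold change of the list was 0.02 for heat stress against control and -0.05 for L-Asp against heat stress.

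Markers were read to check the labelled cell type. Of 12 oocyte markers 11 were in the table and none was at 0 in any library, with a summed level of 26163 to 26474 CPM in control, 11680 to 15042 CPM in heat stress and 14058 to 16899 CPM with L-Asp. BTG4 and BMP15 make up most of that sum, and BTG4 alone measured 15736 to 15897 CPM in control and 5484 to 8803 CPM in heat stress. Other markers lay the other way, such as ZP3 at 138 to 146 CPM in control and 169 to 344 CPM in heat stress. Of the 11, 4 had a log2 fold change above 0 for heat stress against control, beside 50.1% of all genes. At an unadjusted p under 0.05 (edgeR) 0 were higher and 4 lower, beside 1.96% and 1.9% of all genes. For heat stress plus L-Asp against control 2 were higher and 3 lower at that p, beside 1.63% and 1.6%. For L-Asp against heat stress 1 was higher and 0 lower, beside 3.52% and 3.1%. Of 25 cumulus and granulosa markers 21 were in the table, summing to 1208 to 1244 CPM in control, 1243 to 1630 CPM in heat stress, highest in replicate 1, and 1224 to 1266 CPM with L-Asp, most of it from RGS2 and VCAN. Of the 15 tested, 11 were above 0 for heat stress against control, with a median log2 fold change of 1.19 and 4 higher at an unadjusted p under 0.05 (edgeR). Among all genes 50.1% were above 0 and 1.96% were higher at that p. For heat stress plus L-Asp against control 11 markers were above 0 as well, with a median of 0.55, and 5 were higher at that p. The shares of all genes were 50.5% and 1.63%. For L-Asp against heat stress 5 were above 0, with a median of -0.32, beside 49.0% of all genes. PTX3 was at 0 in all 9 libraries, LHCGR in all but L-Asp replicate 3, and CYP11A1 stood at 0, 0 and 0.115 CPM in control against 5.98, 6.37 and 15.1 CPM in heat stress and 1.32, 7.80 and 0.69 CPM with L-Asp. Markers of blood and immune cells summed to at most 5.10 CPM and those of theca and stroma to at most 8.48 CPM. HSPA8, HSPA4 and HSPH1 are expressed in somatic cells too, and the part of cumulus RNA in their values was not tested.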

How the data were processed

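Polyadenylated RNA of 9 pig MII oocyte libraries, 3 per group by their titles, was read as full-length cDNA primed with oligo(dT), amplified by PCR and sequenced on an Illumina platform, per the labels' protocols. No strand or molecular identifiers are described, so intervals and limits cover counting error only. The deposited table, made by the authors, holds whole-number counts and FPKM values for 23507 genes, per the file headers. The deposited FPKM values are per transcript length and library. Tools listed, without roles, in the submitters' processing notes include HISAT2 2.2.1, StringTie 2.1.6 and cutadapt 1.9. The sources used here give neither the genome build nor the counting step. Another 6 columns of per-sample values were not used. The table itself names 13893 genes, a list of gene names added 116, and 9498 stayed without a symbol.

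Counts were tested with edgeR 4.0.16 (filterByExpr on 9 libraries, 15012 genes, TMM, robust quasi-likelihood F test, 1 mean per group, 4 residual degrees of freedom) in R 4.3.3, with Benjamini-Hochberg adjustment over all genes tested. The control libraries were averaged because they differed far less than heated libraries did. The squared difference was 5.20 to 5.24 times that of independent counts, against 79.4 to 119 in the heated groups. It comes near sampling noise only if about 4 counts stand for 1 fragment, as assumed above for a count of 0. The spread of control is assumed to be that of the heated groups. SE is the log2 fold change divided by the square root of F. DNAJB8, HSPA6 and HSPA1L did not pass the filter. Of the members, 20 overlap another gene of the table. Alternatives were other scalings, filters, DESeq2 1.42.0, 9 libraries, a replicate block, leaving out each library, and, added after seeing the data, leaving out mitochondrially encoded genes. Planned counts of promoter motifs and protein features were not run, since no sequences were used here.

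Members and lists were chosen with earlier results of these data known. Values per library are given for the 5 members of smallest p in each direction and comparison with a mean of at least 10 CPM, the 3 most abundant of each family, every HSF and a set of classic heat shock genes, 44 in all. DNAJC25, DNAJA4, HSPA13, HSPB3 and DNAJB8 were named after their values were seen. The 40 listed pathway genes were named where their unadjusted p was under 0.05, except for 1 that is not reported here.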

Additional observations from a re-analysis of the deposited data

How the results depend on the processing

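With each control library as its own sample, 1 member (HSPA8) passed an adjusted p of 0.05 for heat stress against control, and 2 (HSPA8 and HSPA4, adjusted p of 0.0112 and 0.0399) with the replicate number as a block, edgeR. Of all 15012 genes tested, 433 passed in the first of these fits and 378 in the second. The labels do not say whether the replicate numbers pair the libraries. Deviations of same-numbered heat stress and L-Asp libraries correlated at 0.138, -0.0384 and 0.0355, the first being the highest of any pair of these groups. The other 2 of the 3 L-Asp libraries did not correlate best with their own number. Such weak correlations over all genes cannot decide whether a block is right. No other alternative called a member in any comparison. Members with an unadjusted p under 0.05 for heat stress against control numbered 9 (4 higher, 5 lower) with the block and 9 (4 higher, 5 lower) with 9 libraries, and 1 was lower with no filter. For L-Asp against heat stress they numbered 14 with the block (9 lower) and 11 with 9 libraries (6 lower), and 4 were lower with a block on the 6 heated libraries, with DESeq2, with the filter on 7 libraries and with no filter. For heat stress plus L-Asp against control they numbered 11 with the block (5 higher, 6 lower), 7 with 9 libraries (4 higher, 3 lower) and 1, higher, with library totals. The members' median log2 fold change for heat stress was -0.036 with the block and 0.28 with library totals, and that for heat stress plus L-Asp against control 0.19 with library totals. With library totals 15 members lay above control after heat stress and 5 below it with L-Asp.

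Leaving out 1 library at a time, 0 members were called in any comparison. For heat stress against control the members with an unadjusted p under 0.05 ranged from 1 to 7 (1 to 4 higher, 0 to 3 lower), those above control from 7 to 20, those below from 10 to 19, and the median from -0.01 to 0.11. For L-Asp against heat stress they ranged from 1 to 10 (1 to 4 higher, 0 to 7 lower), those higher without overlap from 4 to 7, those lower from 3 to 16, and the median from -0.13 to 0.0075. For heat stress plus L-Asp against control they ranged from 0 to 3 (0 higher, 0 to 3 lower), those above control from 11 to 15, those below from 14 to 23, and the median from -0.02 to 0.02. Shares of all genes by unadjusted p or by overlap were not computed for these fits or for the other alternatives. The 30 fold changes of the genes named by smallest p kept their sign in all 550 alternatives. They had been picked by direction and p from the same libraries, so stable signs are no separate support. Some alternatives could hardly move them, as leaving out a control library leaves the difference between the heated groups unchanged. FPKM rescaled to a common sum per library (TPM) kept HSPE1, DNAJA1 and DNAJC15 highest in control, at 1578, 1537 and 1364 TPM.

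With 3 libraries per heated group and 1 averaged control, large differences of single genes also went uncalled, such as that of UBB (log2 fold change -1.74, adjusted p = 0.249, edgeR), and missing calls do not show equal levels. Low counts limit the HSF, HSPB3, HSPB6, DNAJA4 and DNAJC25 values.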
